A study of Mus musculus with 374 samples.

Results

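The genes that assemble antigen receptors and accompany their first surface forms were followed across the sorted blood cells of 1 mouse. The members were *Rag1*, *Rag2*, *Dntt*, *Vpreb1*, *Vpreb2*, *Igll1*, *Vpreb3* and *Ptcra*, chosen by name for what their products do. Of these 8 genes, 6 were matched to 1 of the 19829 mouse gene rows of the table, and *Vpreb2* and *Ptcra* were not analysed here. All cells came from a female C57BL/6 mouse of 10 to 13 weeks, without further treatment or genetic change in the labels. Marrow gave the B lymphocytes (B220+ cells of low forward scatter, 44 wells), progenitor/stem cells (lineage-negative cells with Kit and Sca1 at the surface, 95 wells), granulocytes (positive for Mac1 and Gr1, 96 wells) and erythroblasts (positive for Ter119 and CD44, of middle or high forward scatter, 96 wells). The thymus gave the T lymphocytes (CD3+ cells of low forward scatter, 43 wells). Each well of 1 plate received 1 sorted cell, its fluorescence was recorded during the sort (index data), and RNA was measured with an adapted CEL-seq2 protocol, which counts transcripts at their 3' end by unique molecular identifiers (UMIs).

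RAG1 and RAG2 together form the nuclease that cuts DNA at the recombination signals beside the V, D and J segments of immunoglobulin and T cell receptor genes. Terminal deoxynucleotidyl transferase, the product of *Dntt*, adds bases without a template at the joints, and it is also known from lymphoid-primed progenitors. VPREB1 or VPREB2 and the lambda5 protein of *Igll1* form the surrogate light chain that carries the first immunoglobulin heavy chain to the surface of precursor B cells, VPREB3 is a related protein of the B lineage that binds nascent chains inside the cell, and the pre-T alpha chain of *Ptcra* does for the T cell receptor beta chain what the surrogate light chain does for the heavy chain.

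Each population is 1 sample, since all wells share 1 mouse and 1 plate. UMIs were therefore summed per population and given per 1000000 UMIs on mouse genes (CPM), with no p-value. Intervals are 95% exact intervals (Poisson for CPM, binomial for shares of wells, conditional binomial for ratios) and cover counting error only. Granulocytes and erythroblasts should lack the members, so that their values stand as background. The median well held 3028.5 UMIs among B lymphocytes, 4347 among T lymphocytes, 7959 among progenitor/stem cells, 3880 among granulocytes and 6113.5 among erythroblasts. All 374 cell barcodes were distinct. The labels held against the markers of each gate: the 6 B markers summed to 8078 CPM in their own population and to at most 264 CPM elsewhere, and the 8 T markers to 3957 CPM in theirs and at most 73.6 CPM in any other. The 4 analysed markers of plasmacytoid dendritic cells, which can carry B220, summed to 309 CPM in the B lymphocytes against 422 CPM in progenitor/stem cells. In the B lymphocytes nearly all of this was *Tcf4*, with 40 UMIs in 19 wells (295 CPM). *Cox6a2* gave 2 UMIs there, and *Siglech* and *Bst2* gave 0. The 7 erythroblast markers, mainly haemoglobin, reached 29188 CPM in the B lymphocytes, 18399 CPM in T lymphocytes and 13280 CPM in progenitor/stem cells, and the source of these UMIs was not tested. Among the 44 B lymphocyte wells, A8 and B6 held no UMI of the 6 B markers, A8 had a Gr1 fluorescence of 15209, and B2 had a CD3 fluorescence of 7905. None of these 3 wells held a UMI of any member.

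The promoters of the 3 genes that the differences below turn on are shown from RefSeq (GRCm38.p6), each with 250 bases before and 50 after the annotated start, 5' to 3' on the strand of the gene. All 8 members matched a promoter entry. Capitals mark matches, on either strand, to the E-boxes CAGGTG and CAGCTG, which E proteins such as that of *Tcf3* bind, or to the EBF1 core CCCNNGGG. *Rag1* lies on the minus strand (promoter at chr2:101649483-101649782), *Vpreb3* on the plus strand (chr10:75948050-75948349) and *Dntt* on the plus strand (chr19:41029025-41029324).
Rag1: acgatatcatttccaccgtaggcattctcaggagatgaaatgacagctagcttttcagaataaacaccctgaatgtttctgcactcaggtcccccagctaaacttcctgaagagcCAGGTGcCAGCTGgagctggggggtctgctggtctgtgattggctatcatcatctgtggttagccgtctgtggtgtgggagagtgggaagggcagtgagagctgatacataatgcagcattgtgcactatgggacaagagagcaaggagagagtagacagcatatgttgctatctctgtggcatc
Vpreb3: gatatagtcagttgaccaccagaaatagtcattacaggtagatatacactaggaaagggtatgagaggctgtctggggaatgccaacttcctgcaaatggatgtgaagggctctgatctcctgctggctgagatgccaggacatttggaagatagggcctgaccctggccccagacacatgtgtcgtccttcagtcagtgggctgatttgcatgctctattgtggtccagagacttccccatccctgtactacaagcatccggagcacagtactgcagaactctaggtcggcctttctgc
Dntt: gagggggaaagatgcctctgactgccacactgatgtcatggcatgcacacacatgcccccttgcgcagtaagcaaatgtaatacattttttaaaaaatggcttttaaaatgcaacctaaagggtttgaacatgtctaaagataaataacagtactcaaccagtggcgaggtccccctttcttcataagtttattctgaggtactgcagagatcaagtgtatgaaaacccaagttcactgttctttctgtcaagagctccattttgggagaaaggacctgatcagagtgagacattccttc
The *Rag1* window held CAGGTG from 135 to 130 bases before the start and CAGCTG from 128 to 123 bases before it, with 1 base between them. The windows of *Vpreb3*, *Dntt* and *Rag2* held none of the 3 motifs. The windows of *Vpreb3* and *Vpreb1* follow RefSeq starts that lie inside the gene spans given below from GENCODE M21, so that they do not cover the first base of those spans. That of *Vpreb1* held 1 CAGGTG, and that of *Igll1* held 1 of each motif. Those of *Vpreb2* and *Ptcra*, whose levels were not analysed here, held 2 and 4 matches. Among 32851 promoters of this length, 20.2% held CAGGTG, 16.3% CAGCTG and 13.7% the EBF1 core, so single matches are common. A match is a description of the letters and not of binding.

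The recombinase genes lie side by side on chromosome 2 in opposite orientation, *Rag2* (ENSMUSG00000032864) at 101624718 to 101632529 and *Rag1* (ENSMUSG00000061311) at 101638282 to 101649501 in GRCm38, with 5752 bases between them. *Rag1* was found almost entirely in the B lymphocytes. It gave 89 UMIs there, 655 CPM (526 to 806). Progenitor/stem cells gave 5 UMIs (5.99 CPM, 1.94 to 14.0), erythroblasts 5 (interval 2.44 to 17.5 CPM), and T lymphocytes and granulocytes 0. The ratio of progenitor/stem cells to erythroblasts was 0.799 (0.184 to 3.47). Of the 5 erythroblast UMIs, 4 lay in 6 wells of the plate row next to the B lymphocytes. These wells were chosen after their values were seen, so that a lower background without them follows from the choice. Without them the background of granulocytes and erythroblasts was 1 UMI in 186 wells (0.975 CPM). Of the 4 progenitor/stem cell wells with *Rag1*, 3 also held *Rag2*. The lowest B lymphocyte well held 0 UMIs of *Rag1*, the median well 1 and the highest, A16, 11, and 24 of 44 wells (54.5%, 38.8 to 69.6) held at least 1. With every well thinned to 1000 UMIs, the expected share of wells was 36.2% for B lymphocytes, 0.538% for progenitor/stem cells and 0.963% for erythroblasts. Of the 89 UMIs, 93.3% were in the 18 wells with 2 or more, so that the signal in the B lymphocytes was not one of scattered single UMIs. *Rag1* was 109-fold higher in the B lymphocytes than in the progenitor/stem cells (45.2 to 345) and at least 43.8-fold higher than in the T lymphocytes, against a floor of 3 UMIs over the population (lower limit of the exact interval 34.9).

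*Rag2* was measured by few UMIs in every population. It gave 4 UMIs in the B lymphocytes, each in a different well (29.5 CPM, 8.03 to 75.4), and 11 UMIs in 6 wells of the progenitor/stem cells (13.2 CPM, 6.58 to 23.6). The T lymphocytes and granulocytes gave 0 and the erythroblasts 1. The ratio of progenitor/stem cells to erythroblasts was 8.79 (1.28 to 378), on that 1 erythroblast UMI. With the erythroblast sum set to a floor of 3 UMIs, the log2 ratio was 1.55, short of 4-fold. The ratio of B lymphocytes to progenitor/stem cells was 2.24 (0.519 to 7.54), so that the order of these levels was not detectable at this depth. *Rag2* made up 4 of the 93 recombinase UMIs of the B lymphocytes, 4.30% (1.18 to 10.6). Of the 16 of the progenitor/stem cells it made up 11, 68.8% (41.3 to 89.0). The *Rag1* counts beside these were 89 and 5 UMIs. The intervals do not overlap, but they count UMIs of 1 well as independent, and 8 of the 11 lay in 3 wells. They are thus too narrow for a difference between the populations. Leaving out the well with most recombinase UMIs in the progenitor/stem cells, K1 (1 of *Rag1* and 4 of *Rag2*), lowered the summed level of both genes there from 19.2 to 13.6 CPM. In GENCODE M21 both genes overlap exons of *B230118H07Rik*, on the strand of *Rag1* and opposite to *Rag2*, and the use of strand in the counting is not given in the sources used here, so that the counts of both genes are uncertain by this overlap. *B230118H07Rik* itself held 20 UMIs in progenitor/stem cells, 1 in B lymphocytes, 1 in granulocytes and 0 in the other two populations, and its part in the *Rag2* count was not tested.

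Of the thymic T lymphocytes, 0 of 43 wells held a UMI of *Rag1* or *Rag2*, which allows a share of wells of up to 6.98% by the floor of 3 counts and 8.22% by the exact interval, and a level of up to 18.4 CPM for each by the exact interval. These cells were gated on surface CD3 and low forward scatter. *Cd4* was found in 23 of the wells, *Cd8a* or *Cd8b1* in 19, both kinds of coreceptor in 7 and neither in 8. Of the 6 analysed genes of the double-positive thymocyte list, 4 (*Satb1*, *Cd8a*, *Cd8b1* and *Cd4*) were at least 4-fold higher in the T lymphocytes than in the progenitor/stem cells, while *Arpp21* gave 0 UMIs in the T lymphocytes and *Cd24a* 5. Of the 7 genes of the mature thymocyte list, 6 were higher by the same rule, where 3.48% of 9911 genes were, among them *Ms4a4b* at 1003 CPM, *Il7r*, a cytokine receptor chain, at 245 CPM and *Klf2*, a factor of mature T cells, at 230 CPM. The constant regions of the T cell receptor chains were at 2271 CPM (*Trbc2*) and 1322 CPM (*Trac*) in these cells, in counts that do not tell joined from unjoined transcripts.

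**Figure D1:**
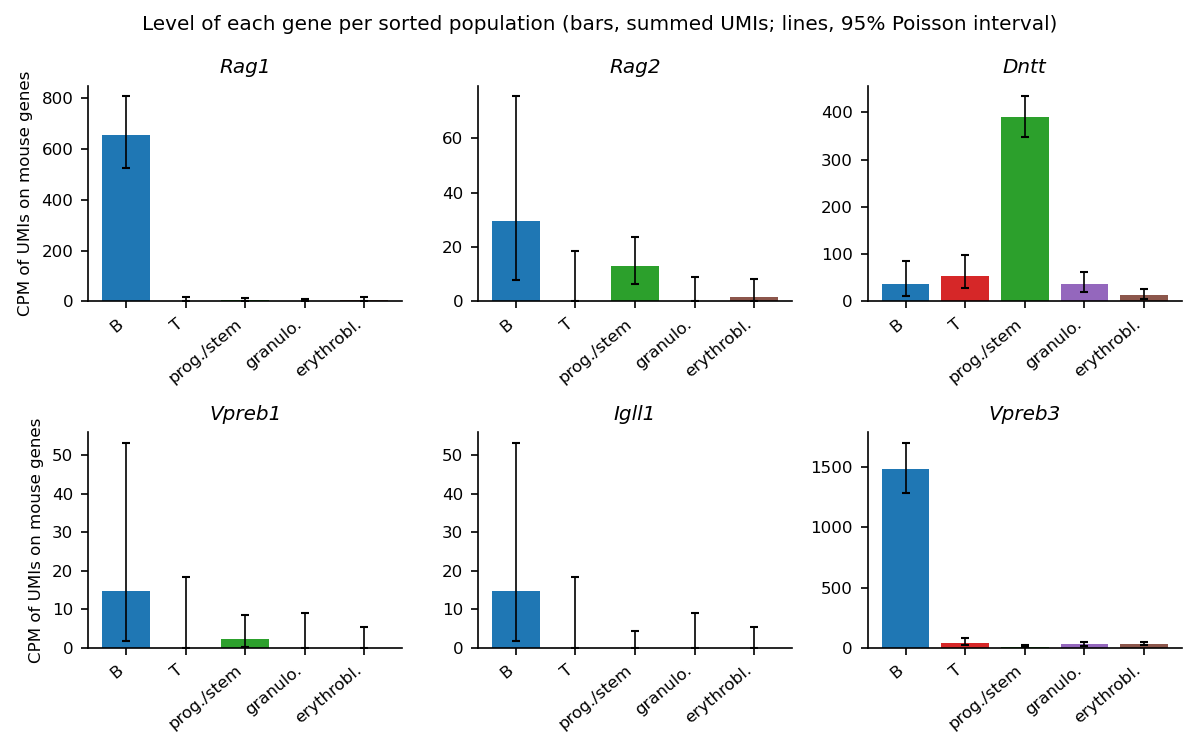
Level of 6 recombination and pre-receptor genes in each sorted population: bars give CPM from summed UMIs on the y axis (each panel has its own scale), lines the 95% Poisson interval (counting error only), and the x axis the 5 populations. *Rag1* and *Vpreb3* stood highest in the B lymphocytes at 655 and 1480 CPM, and *Dntt* in the progenitor/stem cells at 389 CPM, while *Vpreb1* and *Igll1* had at most 2 UMIs in any population.

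*Dntt* (ENSMUSG00000025014, chromosome 19, 41029275 to 41059525) was a transcript of the progenitor/stem cells. It gave 325 UMIs there, 389 CPM (348 to 434), in 40 of 95 wells (42.1%, 16.5% when thinned to 1000 UMIs). T lymphocytes gave 11 UMIs in 8 wells (54.9 CPM, 27.4 to 98.2), granulocytes 15 in 14 wells (37.2 CPM, 20.8 to 61.3), B lymphocytes 5 in 5 wells (36.8 CPM, 12.0 to 85.9) and erythroblasts 9 in 9 wells (13.5 CPM, 6.17 to 25.6). The levels of the T lymphocytes, B lymphocytes and granulocytes do not differ beyond their intervals. The B lymphocyte level is read as background, since the granulocytes should lack *Dntt*, with the share of wells at 18.6% for T lymphocytes, 11.4% for B lymphocytes and 14.6% for granulocytes. For the T lymphocytes the reading is less clear. They were 4.07-fold above the erythroblasts (1.53 to 11.1), the background of granulocytes and erythroblasts together was 22.4 CPM (14.4 to 33.4), and 45.5% of their 11 UMIs were in wells with 2 or more, against 13.3% of the 15 in granulocytes. Their 21 wells below the median CD3 fluorescence held 8 of the 11 UMIs, a ratio of 2.70 (0.648 to 15.8) that includes 1. *Dntt* was 10.6-fold higher in the progenitor/stem cells than in the B lymphocytes (4.49 to 32.8) and 7.09-fold higher than in the T lymphocytes (3.91 to 14.3).

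Within the progenitor/stem cells *Dntt* was spread unevenly. The lowest and the median well held 0 UMIs and the highest, L6, held 73, followed by K15 with 37 and by M14 and M2 with 23 each. These 4 wells held 48.0% of its UMIs there, L6 alone 22.5%. Without L6 the level was 306 CPM, below the interval of the value with it. A single UMI was found in 18 of the 40 wells, a count per well that background populations also gave.

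The wells with most *Dntt* UMIs were at the low end of c-Kit fluorescence, which was recorded at the sort and is independent of the counts. The 47 wells below the median c-Kit fluorescence of 6329 held 302 *Dntt* UMIs (737 CPM, 656 to 825) and the 48 others held 23 (54.1 CPM, 34.3 to 81.2), a ratio of 13.6 (8.91 to 21.8). In the 31 wells with the lowest c-Kit fluorescence the level was 864 CPM, and in the 31 with the highest it was 17.6 CPM, with no well above 1 UMI. The median depth of these groups was 7956 and 8525 UMIs per well. *Rag2* gave 8 UMIs in the 31 c-Kit-low wells and 0 in the 31 c-Kit-high wells, at least 2.77-fold against a floor of 3 UMIs (lower limit of the exact interval 1.77). These 8 UMIs lay in 4 wells, and K1 alone held 4 of them. The interval counts UMIs of 1 well as independent, so that it is too narrow for a difference between cells. Sca-1 fluorescence divided the summed *Dntt* UMIs less, with 247 CPM below its median and 544 CPM above it, a ratio of 0.454 (0.357 to 0.575). This interval covers counting error only, while 4 wells held 48.0% of the UMIs. Across the 95 wells the Spearman correlation of *Dntt* CPM was 0.11 with Sca-1 fluorescence (Pearson -0.06) and -0.47 with c-Kit fluorescence (Pearson -0.40), so that a relation to Sca-1 was not seen well by well. These are cells of 1 mouse, and the ratios were not tested.

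The recombination genes of the progenitor/stem cells met in the same wells. All 6 wells with a *Rag2* UMI held *Dntt* as well, with between 8 and 73 UMIs of it, and 3 of the 4 wells with *Rag1* did so. *Flt3*, the cytokine receptor that marks lymphoid-primed progenitors, was found in 38 of the 40 wells with *Dntt* and in 75 of all 95 wells. Across the 95 wells the Spearman correlation of *Dntt* CPM was 0.53 with *Flt3* CPM and 0.14 with the depth of the well, given without a test, since the wells share 1 mouse and 1 plate. Of 8 lymphoid-primed genes with enough UMIs, 3 (*Flt3*, *Cd27* and *Cd34*) were at least 4-fold higher here than in B lymphocytes, where 2.06% of 9710 genes were, and 1 (*Il7r*) was so in the opposite direction, where 2.96% were. Against T lymphocytes, 3 of 8 (*Flt3*, *Mef2c* and *Cd34*) were higher here, where 2.45% of 9911 genes were. In the opposite direction 2 of 8 (*Il7r* and *Satb1*) were, where 3.48% were. *Il7r*, which marks later lymphoid stages, gave 6 UMIs in all 95 wells. The wells K1 and L6, named after their values were seen, held 18 and 14 *Ighm* UMIs of the 168 in these 95 wells. *Igll1* gave 0 UMIs in these wells, up to 4.42 CPM, and *Vpreb1* gave 2.

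**Figure D2:**
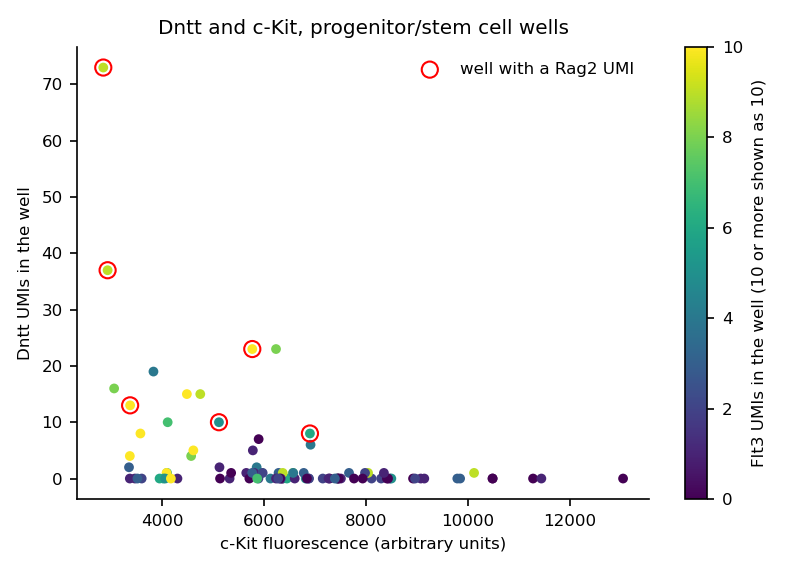
*Dntt* UMIs (y axis) against c-Kit fluorescence in arbitrary units (x axis) in the 95 progenitor/stem cell wells, 1 point per well, coloured by *Flt3* UMIs, with a red ring around wells with a *Rag2* UMI. The wells with 37 and 73 *Dntt* UMIs had c-Kit fluorescence of 2927 and 2842, and all 6 ringed wells held at least 8 *Dntt* UMIs.

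The surrogate light chain genes were close to the limit of detection. *Igll1* (ENSMUSG00000075370) and *Vpreb1* (ENSMUSG00000059305) are neighbours on the minus strand of chromosome 16, at 16860671 to 16863985 and 16868403 to 16870843. *Igll1* gave 2 UMIs, in the B lymphocyte wells B18 and B19. *Vpreb1* gave 2 in the B lymphocyte wells B18 and B12 and 2 in the progenitor/stem cell wells L3 and N7. Well B18 thus held both genes, and also 10 *Vpreb3* UMIs, 1 *Rag2* UMI and 24 *Ighm* UMIs. For *Vpreb1* the ratio of B lymphocytes to progenitor/stem cells was 6.15 with an interval from 0.446 to 84.8. The sum over both genes was 29.5 CPM in the B lymphocytes (8.03 to 75.4). *Vpreb1* and *Vpreb2* are nearly identical copies, so that reads can be split between them or lost, and *Vpreb1* overlaps exons of *Top3b* on the opposite strand, which makes its count uncertain. *Top3b* held 8 UMIs in B lymphocytes and 49 in progenitor/stem cells.

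*Vpreb3* (ENSMUSG00000000903, chromosome 10, 75943057 to 75949657), in contrast, was high in the B lymphocytes. It gave 201 UMIs there, 1480 CPM (1282 to 1699), in 33 of 44 wells (75.0%, 64.1% when thinned to 1000 UMIs). The lowest well held 0 UMIs, the median well 4 and the highest, B3, 17. T lymphocytes gave 9 UMIs (44.9 CPM, 20.5 to 85.3), erythroblasts 22 (33.0 CPM, 20.7 to 50.0), granulocytes 12 (29.7 CPM, 15.4 to 51.9) and progenitor/stem cells 9 (10.8 CPM, 4.93 to 20.5). Outside the B lymphocytes no well held more than 2 UMIs, and 16.1% of the 192 granulocyte and erythroblast wells held 1 or 2, which is background. The T lymphocytes did not differ beyond counting error from the granulocytes (ratio 1.51, 0.562 to 3.91), so that their level is read as background too, and the progenitor/stem cells lay below the erythroblasts (ratio 0.327, 0.132 to 0.738). *Vpreb3* was 33.0-fold higher in the B lymphocytes than in the T lymphocytes (17.0 to 73.1) and 137-fold higher than in the progenitor/stem cells (70.9 to 305).

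**Figure D3:**
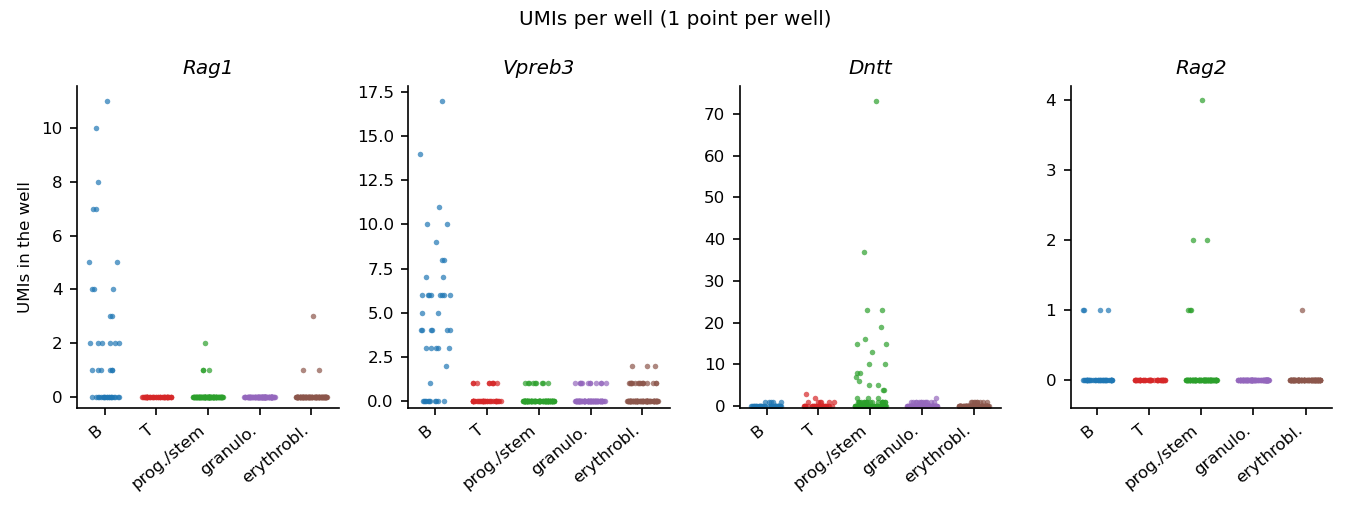
UMIs of *Rag1*, *Vpreb3*, *Dntt* and *Rag2* in every well (y axis, 1 point per well, spread sideways for visibility) by sorted population (x axis). Wells of the B lymphocytes reached 11 *Rag1* and 17 *Vpreb3* UMIs, a progenitor/stem cell well reached 73 *Dntt* UMIs, and *Rag2* reached 4.

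Nearly all B lymphocyte wells with *Rag1* also held *Vpreb3*, which was itself found in most wells. Of the 24 wells with *Rag1*, 23 held *Vpreb3*, beside 33 of all 44 wells, and 8 of the 44 wells held no member at all. Across the 44 wells the Spearman correlation of the CPM of these 2 genes was 0.32 (Pearson 0.12), given without a test. The 4 wells with *Rag2* all held *Vpreb3*, and 3 of them held *Rag1*. Of the 17 wells with the mature B cell gene *Ms4a1*, 6 held *Rag1* and 11 held *Vpreb3*. The Spearman correlation with *Ms4a1* CPM was -0.38 for *Rag1* (Pearson -0.26) and -0.15 for *Vpreb3* (Pearson -0.05). Well B17, with 21 UMIs of *Ms4a1*, held 0 *Rag1* and 4 *Vpreb3* UMIs, and was named after its values were seen.

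B220 fluorescence separated the B lymphocytes into 36 wells between 352 and 1718 and 8 wells between 2458 and 4783, and 7 of these 8 wells had a Sca-1 fluorescence above 2000 against 1 of the 36. In the 36 wells with less B220, the lowest, median and highest *Rag1* counts were 0, 1 and 11 UMIs, and in the 8 wells with more B220 they were 0, 0 and 2. The levels were 746 CPM (597 to 921) and 146 CPM (30.2 to 428). For *Vpreb3* the lowest, median and highest counts were 0, 5.5 and 17 in the wells with less B220 and 0, 0 and 3 in those with more, and the levels 1708 CPM (1478 to 1964) and 195 CPM (53.2 to 500). The groups overlapped, since wells with less B220 also reached down to 0 UMIs. The ratios were 5.09 (1.69 to 25.2) for *Rag1* and 8.75 (3.36 to 32.4) for *Vpreb3*, counted on 3 and 4 UMIs in the B220-high wells, and 5.43 and 9.33 without wells A8 and B2. The median depth was 3144.5 and 2321 UMIs per well.

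Several genes of the B cell stage lists differed between these wells, and others did not. *Cd93* and *Sox4*, which are known from immature B cells, were at 590 and 798 CPM in the wells with less B220 and at 1 UMI each in the wells with more. *Mki67* and *Top2a*, of dividing cells, had ratios of 1.67 (0.869 to 3.60) and 1.99 (0.804 to 6.37), which include 1. Of the other genes of the immature list, named after their values were seen, *Cd79a* had a ratio of 0.552 (0.380 to 0.818) and *Blnk* one of 0.928 (0.450 to 2.15). Of the mature stage list, *Cd74* and *H2-Aa*, of antigen presentation by class II, were at 8783 and 3464 CPM in the wells with more B220 against 581 and 199 CPM in the others. *Klf2* and *Ms4a1* of the same list had ratios of 0.691 (0.326 to 1.63) and 0.741 (0.389 to 1.53), which include 1. *Ighm*, the heavy chain of IgM, was at 4787 CPM in the wells with less B220 and 4001 CPM in those with more, and the interval of the ratio (0.947 to 1.53) includes 1.

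Forward scatter, a measure related to cell size, also divided the *Rag1* counts. The 22 wells of lower forward scatter held 68 *Rag1* UMIs (1092 CPM) and the 22 of higher forward scatter 21 (286 CPM), a ratio of 3.83 (2.32 to 6.57). At least 1 *Rag1* UMI was found in 14 and 10 of these wells. The lowest, median and highest counts were 0, 2 and 11 against 0, 0 and 5, so that the groups overlapped. The intervals of this paragraph count UMIs of 1 well as independent and are too narrow for a difference between cells. *Vpreb3* had a ratio of 0.749 (0.557 to 1.00) and *Top2a* one of 0.204 (0.0886 to 0.419), below the 1.05 (0.701 to 1.58) of *Mki67*.

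**Figure D4:**
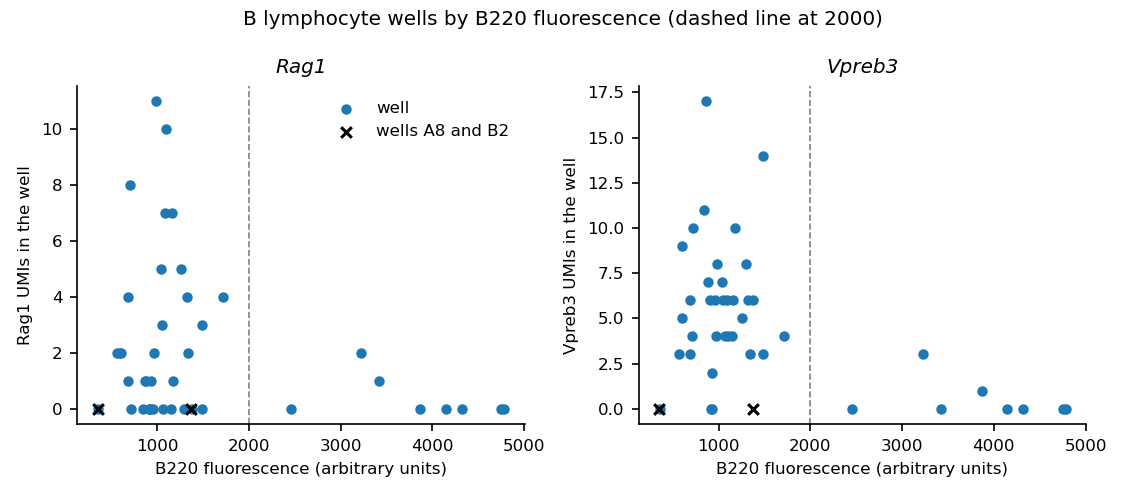
UMIs of *Rag1* (left) and *Vpreb3* (right) per B lymphocyte well (y axes) against B220 fluorescence in arbitrary units (x axes), 1 point per well, with the wells A8 and B2 as crosses and a dashed line at 2000. Right of the line 2 of 8 wells held *Rag1* and 2 of 8 held *Vpreb3*, with at most 3 UMIs.

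To set the members against all other genes, a gene was called when its CPM was at least 4-fold higher in one population than in another, among genes with at least 10 UMIs in both together, with sums under 3 UMIs set to 3. Between B and T lymphocytes, *Rag1* and *Vpreb3* of 3 members with enough UMIs were called higher in the B lymphocytes, where 4.23% of 5441 genes were called. None of the 3 was called higher in the T lymphocytes, where 4.06% of genes were. Between B lymphocytes and progenitor/stem cells, *Rag1* and *Vpreb3* of 4 members were called higher in the former, against 2.96% of 9710 genes, and *Dntt* of 4 was called higher in the latter, against 2.06%. Between T lymphocytes and progenitor/stem cells, *Dntt* of 3 members was called higher in the progenitor/stem cells, against 2.45% of 9911 genes. *Vpreb3* was called higher in the T lymphocytes (4.17-fold, 1.47 to 11.8, on 9 UMIs each), against 3.48% of genes, at a T lymphocyte level that is read as background above. A member that reaches the minimum mainly through 1 population is likely to pass the fold too, so that these counts describe the genes and support nothing further. By the same rule, 7 of 7 B cell receptor partners and products were called higher in the B lymphocytes than in either other population, and 6 of 6 T cell receptor genes were called higher in the T lymphocytes.

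**Figure D5:**
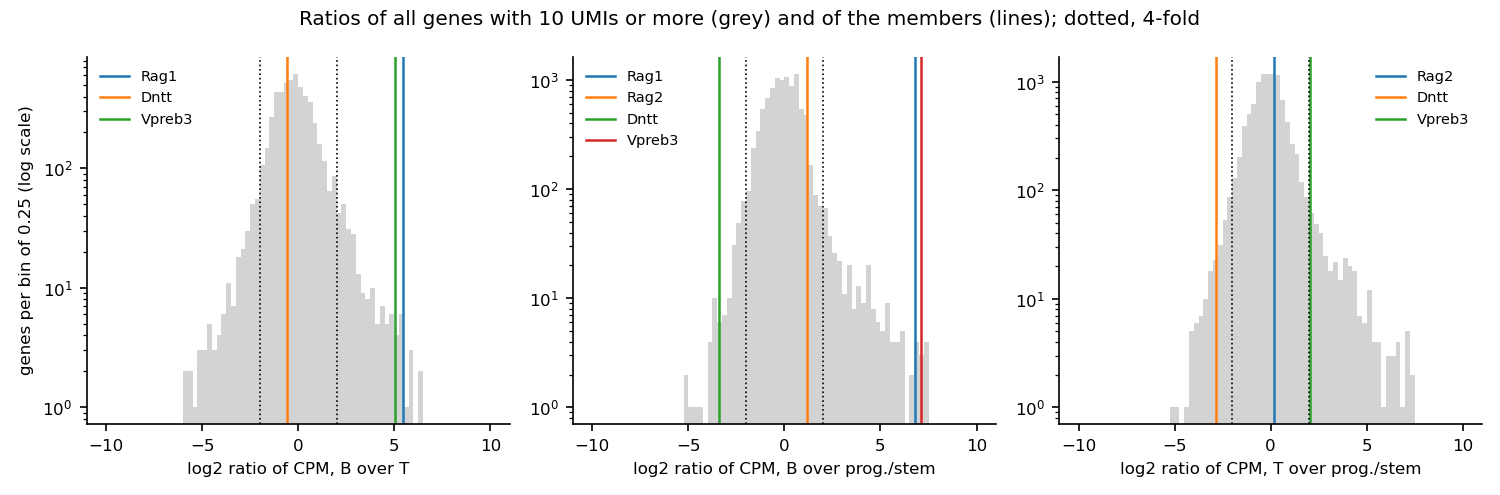
Number of genes (y axis, log scale) by log2 ratio of CPM between populations (x axis) for B over T lymphocytes, B lymphocytes over progenitor/stem cells and T lymphocytes over progenitor/stem cells, with coloured lines for the members that reached 10 UMIs and dotted lines at 4-fold. *Rag1* and *Vpreb3* lay far right of the dotted line in the first 2 panels, with log2 ratios of at least 5.04, while the median gene was at -0.25, -0.04 and -0.08.

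The genes whose levels over the 5 populations were most like those of a member were named by the distance between shares of CPM, among 8143 genes with at least 30 UMIs. For *Rag1* they were *Gm45745*, *Cd79a*, a signalling chain of the B cell receptor, and *Iglc3*, a lambda light chain constant gene. For *Vpreb3* they were *Igkc*, the kappa constant gene, *Fcmr*, a receptor for IgM, and *Blk*, a kinase of B cells. For *Dntt* they were *Cdk6*, a cell cycle kinase, *4931406C07Rik* and *Hoxa7*, a homeobox gene. The distances, over 5 populations with 0 for the same pattern and 1 for none shared, were at most 0.0121 for *Rag1*, 0.0155 for *Vpreb3* and 0.0407 for *Dntt*. With the cosine of log2 values instead, 2 of 3 genes were shared for *Rag1* and 0 of 3 for *Dntt* and *Vpreb3*.

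The joining factors that close the breaks made by the recombinase were measured less deeply. Of 14, 9 held at least 10 UMIs in B and T lymphocytes together, and 3 of these were called higher in the B lymphocytes, against 0 in the other direction, where 4.23% and 4.06% of all genes were called. These were *Xrcc6*, which encodes Ku70, at 287 against 39.9 CPM (7.19-fold, 3.31 to 17.8), *Lig4*, the ligase of end joining, at 133 against 20.0 CPM (6.64-fold, 2.19 to 27.0) and *Polm*, a polymerase related to terminal transferase, at 95.7 against 15.0 CPM (6.39-fold, 1.76 to 35.0). The median log2 ratio of the 9 was 1.92, beside -0.25 over all genes tested. *Lig4* and *Polm* were also called higher in the B lymphocytes than in the progenitor/stem cells, 2 of 13 with a median of -0.12 beside -0.04, and 0 of 13 in the other direction, against 2.96% and 2.06% of all genes. *Hmgb2* and *Hmgb1*, cofactors of the recombinase, were at 258 and 133 CPM in B lymphocytes and 64.9 and 89.8 CPM in T lymphocytes, and *Prkdc*, a kinase of end joining, at 81.0 and 160 CPM. Between T lymphocytes and progenitor/stem cells 0 of 12 were called in either direction, against 3.48% and 2.45% of all genes.

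Transcription factors known to act on these genes or in early lymphocytes were called in both directions between B and T lymphocytes. Of 16 with enough UMIs, 5 were called higher in the B lymphocytes (4.23% of all genes), 4 in the T lymphocytes (4.06%) and 7 in neither. The 5 were *Ebf1* (420 against 9.98 CPM), *Tcf3* (501 against 74.9 CPM), *Irf4* (383 against 20.0 CPM), *Irf8* (228 against 15.0 CPM) and *Myb* (891 against 105 CPM). *Satb1*, *Tcf7*, *Gata3* and *Bcl11b* were the 4 called higher in the T lymphocytes. *Tcf7*, a factor of T cell commitment, was at 1282 CPM in T lymphocytes and 14.7 CPM in B lymphocytes, and *Satb1*, a chromatin organiser, at 1113 and 95.7 CPM. *Ikzf1*, which encodes Ikaros, was not called, at 538 CPM in B lymphocytes, 579 CPM in T lymphocytes and 246 CPM in progenitor/stem cells. Against the progenitor/stem cells, 6 of 16 were called higher in the B lymphocytes (2.96% of all genes) and 7 of 15 in the T lymphocytes (3.48%). In the progenitor/stem cells 0 of 16 (2.06%) and 2 of 15 (*Myb* and *Irf8*, 2.45%) were called higher.

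In the background populations, UMIs of *Rag1* and *Rag2* were found in a stretch of the plate. The 6 erythroblast wells in row C, columns 19 to 24, held 4 of the 5 *Rag1* UMIs and the single *Rag2* UMI of the 96 erythroblast wells, and 34 of the 59 UMIs of B markers (771 CPM against 40.2 CPM in the other 90 wells). Rows A and B of the plate held the B lymphocytes, so that all of row C was their neighbour. The 6 wells were chosen after their values were seen. Without these 6 wells the background of *Rag1* over granulocytes and erythroblasts was 0.975 CPM in place of 4.67, and that of *Vpreb3* 29.2 in place of 31.8 CPM. Whether material of neighbouring wells had a part in these counts was not tested.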

How the data were processed

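The values are raw UMI counts for each gene in each well, deposited by the authors without scaling. They were made with *scPipe*, which assigns aligned reads to exons, splits them by designed barcodes and collapses UMIs. No aligner version, genome build, annotation or strand setting was given in the sources used here. Well names tied columns to samples, and 9 further columns fitted no sample and stayed out. Spike-in rows were left out of totals. No well was removed and no doublet caller was run. Of 19829 gene IDs, 19755 had a symbol in GENCODE M21, whose GRCm38 coordinates may not be of the authors' build.

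Counts were summed per population and scaled to CPM, with thinning given as the expected share. Members and gene lists were chosen with earlier results of these data known. The genes named are the members, the 3 nearest genes of members with at least 30 UMIs, and up to 4 genes per list with most UMIs over the 2 lymphocyte populations and the progenitor/stem cells, plus those needed for counts of 5 or fewer. *Arpp21*, *Cd24a*, *Blnk*, *Ms4a1* and genes overlapping a member were named after their values were seen. A gene that the rule also names is not reported here. scran 1.30.0 and edgeR 4.0.16 (R 4.3.3) gave size and TMM factors for alternatives, and Python 3.11.15 with scipy 1.17.1 the rest. Scripts were tested on simulated data.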

Additional observations from a re-analysis of the deposited data

How the results depend on the processing

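Levels in CPM were recomputed with scran size factors, another total, a mean over wells and fewer wells. With scran size factors the levels were 507 for *Rag1* and *Rag2* together and 1065 for *Vpreb3* in B lymphocytes, and 8.03 for *Rag1* and *Rag2* and 210 for *Dntt* in progenitor/stem cells. Without *Gm42418*, *Mir6240*, mitochondrial and haemoglobin genes in the total these were 979 and 2116 CPM in B lymphocytes and 473 CPM for *Dntt* in progenitor/stem cells. Without well L6, *Dntt* was at 306 CPM. The other levels stayed within the interval of the value reported.

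The percentage of all genes called moved with the minimum. With no minimum it was 1.65% for B over T lymphocytes, 1.57% for the reverse, 36.4% for B lymphocytes over progenitor/stem cells, 1.14% for the reverse, 34.0% for T lymphocytes over progenitor/stem cells and 1.36% for the reverse. With 30 UMIs it was 6.91% for T over B lymphocytes, and 3.48% and 4.01% for progenitor/stem cells over B and T lymphocytes. With scran it was 2.65% for T over B lymphocytes, 4.59% for B lymphocytes over progenitor/stem cells, and 0.700% and 1.28% for progenitor/stem cells over B and T lymphocytes. scran moved the median log2 ratio of B lymphocytes to progenitor/stem cells by 0.46. *Rag1*, *Vpreb3* (over both other populations, for B lymphocytes) and *Dntt* kept their calls under all 4 alternatives. scran added *Rag2* for B lymphocytes over progenitor/stem cells, no minimum added *Vpreb1* and *Igll1* there and *Vpreb1* for T lymphocytes over progenitor/stem cells, and 30 UMIs removed *Vpreb3* for T lymphocytes over progenitor/stem cells.

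Of 30 shares of wells, 12 left their interval when thinned to 1000 UMIs and 8 at 2000. All 12 levels split by B220 stayed within theirs without wells A8 and B2, as with Sca-1 in place of B220. With other minima or the cosine, 5 of 6 sets of nearest genes changed. With the row C wells set aside, chosen after seeing the data, 2 of 6 background levels left their interval. Levels of *Vpreb2* and *Ptcra* were not analysed here, and the sum named for *Vpreb1*, *Vpreb2* and *Igll1* holds *Vpreb1* and *Igll1*. One mouse gives no replicate error, sums under 10 UMIs have intervals wider than 4-fold, and fewer positive cells cannot be told from less RNA per cell below about 1 UMI.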
